A study of Mus musculus with 8 samples.

Results

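The genes described here encode the enzymes and carriers that burn fatty acids and make ketone bodies in mouse liver, together with the receptor Ppara and its target Vnn1. They are 37 of the 55487 genes in the deposited table, were listed by symbol, and each had 1 row. By the place of their products, 18 are mitochondrial, 9 peroxisomal and 2 act in making or converting ketone bodies, and 8 act in several places, in the cytosol, in activation or as regulator. The study compared RNA from whole liver of wild-type male C57BL/6N mice under 2 diets, each with injections of carbon tetrachloride (CCl4, a liver toxin) or of its vehicle. ND stands for normal chow with tap water, and WD for a western diet, that is, high-fat chow with a sugar drink (fructose at 23.1 g/L, glucose at 18.9 g/L). Injections went into the peritoneal cavity once weekly, with corn oil as the vehicle, so the control mice received oil as well. There were 3 ND oil libraries, 2 WD oil, 2 ND CCl4 and 1 WD CCl4. The age of the mice, the length of feeding, the dose of CCl4 and whether a library came from 1 mouse or a pool are not given in the sources used here.

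Fatty acids are first joined to coenzyme A. Long chains then cross into mitochondria as carnitine esters and are shortened by repeated rounds of dehydrogenation, hydration, dehydrogenation and thiolytic cleavage, while peroxisomes shorten very long and branched chains. Liver turns the resulting acetyl-CoA into ketone bodies for export to other organs. PPAR-alpha, the nuclear receptor encoded by Ppara, is bound by fatty acids and switches on many genes of these steps.

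Most of these genes lay somewhat higher with the western diet alone or with CCl4 alone than in ND oil, and only the thioesterase gene Acot3, in ND CCl4, passed the test. Values are FPKM, fragments scaled for transcript length and library size, so a level can be compared between genes. Differences are on the scale of log2(FPKM + 1), which understates the change of a gene at low level. The words rose and fell are kept for a Benjamini-Hochberg adjusted p below 0.05 over 11514 tested genes in limma, and all 37 genes described here were among those tested. With WD oil against ND oil 0 of 37 passed, beside 4.41% of all tested genes, and 17 were higher and 0 lower at an unadjusted p below 0.05, which 23.3% of all genes reached in either direction. With ND CCl4 against ND oil 1 of 37 passed, beside 1.42% of all genes, and 15 were higher and 0 lower at an unadjusted p below 0.05, beside 22.8% of all genes. With WD CCl4 against ND oil 0 of 37 passed, beside 0.929% of all genes, and 4 were higher and 0 lower at an unadjusted p below 0.05, beside 15.3% of all genes. These 3 comparisons share the same ND oil libraries. The counts moved with single libraries, both among the 37 and over all genes. For ND CCl4 0 of the 37 passed without any 1 of the ND oil libraries. Of all tested genes 42 to 76 then passed, beside 164 with all 8 libraries. Leaving out a WD oil or ND CCl4 library leaves 1 library in that group. Counts from those fits are therefore not given here, and enter only a range listed with the other settings. Whether each library is a separate animal is not in the labels, so a p compares a difference with the spread between libraries, which may be technical.

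The whole table was shifted in the same direction, which sets the scale of these differences. The median log2 fold change against ND oil of the 37 genes was 0.48 for WD oil, 0.38 for ND CCl4 and 0.26 for WD CCl4, and that of all tested genes was 0.22, 0.26 and 0.19. Of the 37 genes, 31, 27 and 23 lay above the median of all genes in these comparisons. Both WD oil libraries exceeded all 3 ND oil libraries for 27 of 37 genes, and for 40.7% of all tested genes. Both ND CCl4 libraries did so for 26 of 37, and for 41.8% of all tested genes. Under median-of-ratios scaling, which brings the median of all genes to about 0, the median of the 37 genes became 0.21 for WD oil, 0.05 for ND CCl4 and 0.03 for WD CCl4. The number of the 37 above 0 then went from 34 to 28, from 36 to 24 and from 32 to 20. The sign turned to negative for Cpt2, Acaa2, Etfa, Etfb, Etfdh and Acsl5 with WD oil, and for Acadvl, Acads, Eci1, Etfdh, Abcd3, Acaa1a, Acaa1b, Decr2, Crot, Acat1, Acsl5 and Ppara with ND CCl4.

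**Figure D1:**
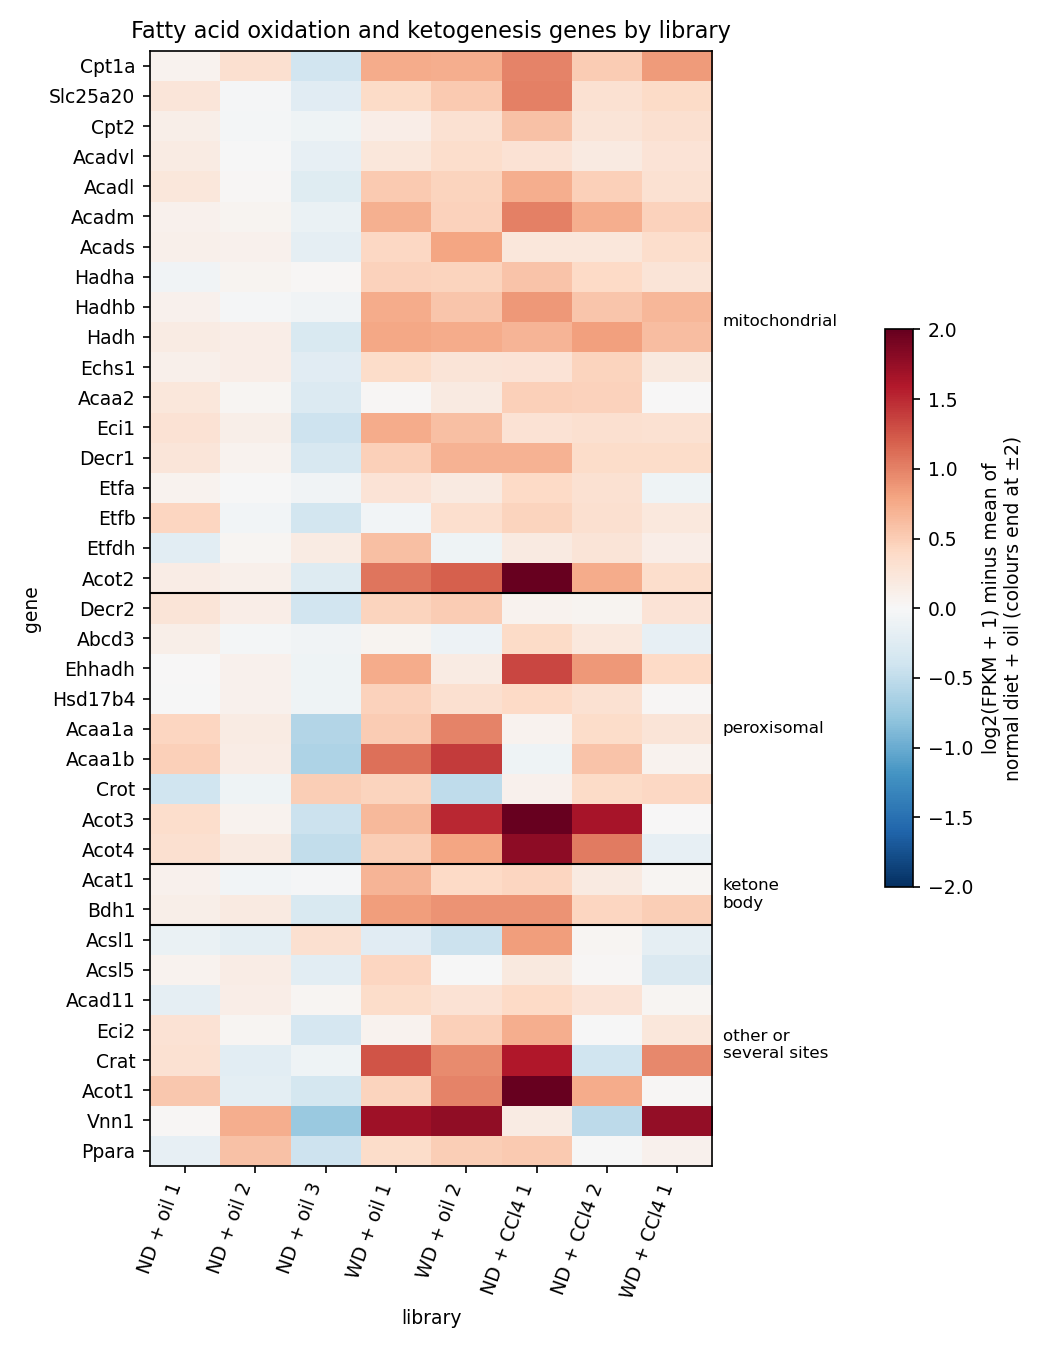
Each row is a gene, each column a library, and the colour is log2(FPKM + 1) minus the mean of the 3 ND oil libraries, with the scale ending at 2 in either direction. ND oil library 3 is the lowest of the 8 libraries for 27 of the 37 genes, and ND CCl4 library 1 the highest for 21.

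A single library per condition stood out in these rows. ND oil library 3 held the lowest value for 27 of the 37 genes (73.0%) and for 36.1% of all tested genes, and ND CCl4 library 1 held the highest for 21 (56.8%) and for 37.4% of all tested genes. The 37 genes made up 0.543%, 0.501% and 0.396% of the FPKM sum in ND oil libraries 1, 2 and 3, 0.736% and 0.733% in WD oil, 0.756% and 0.694% in ND CCl4 and 0.585% in WD CCl4. FPKM is a share, and the Mup genes, which encode the major urinary proteins, took 16.9% to 32.5% of it in ND oil, with the highest share in library 3, 9.16% and 10.04% in WD oil, 2.80% and 4.65% in ND CCl4 and 8.22% in WD CCl4. With the Mup genes left out of the sum, the share of the 37 genes was 0.587% to 0.653% in ND oil, 0.810% and 0.814% in WD oil, 0.728% and 0.778% in ND CCl4 and 0.638% in WD CCl4, so the WD oil and ND CCl4 libraries still lay above all ND oil libraries and WD CCl4 lay within their range. All 9 hepatocyte markers were above 0 in every library, and their summed level was 34598 to 43994 FPKM in ND oil, 34988 to 42408 in WD oil, 49614 to 59441 in ND CCl4 and 41455 in WD CCl4. The 10 macrophage markers summed to 81.4 to 146 FPKM in ND oil, 572 to 1088 in WD oil, 156 to 436 in ND CCl4 and 476 in WD CCl4. Of these, 9 of 10 rose with WD oil, beside 4.41% of all tested genes. The 5 adipocyte markers summed to 3.09 to 6.60, 56.8 to 64.8, 8.76 to 17.7 and 38.5 FPKM in the same order, with Adipoq, Lep and Plin1 at 0 in every library. The sum is thus that of Fabp4 and Cfd, and Cfd was above 0 only in WD oil and ND oil library 2. Of the 2 tested, 2 rose with WD oil, beside 4.41% of all tested genes. Cfd could not meet the filter without WD oil, where it is high, so its call is not counted as support. The 10 stellate cell markers summed to 36.7 to 49.8, 118 to 137, 65.6 to 196 and 93.7 FPKM (2 rose with WD oil), the 7 endothelial markers to 28.8 to 37.7, 59.8 to 68.8, 46.4 to 76.6 and 36.7 (3 rose) and the 5 erythroid markers to 230 to 350, 554 to 928, 253 to 282 and 732 (3 rose). None of the cell markers passed with ND CCl4, beside 1.42% of all tested genes. With WD CCl4 1 adipocyte marker rose, beside 0.929%. The 6 cholangiocyte markers, with Cftr at 0 in every library, summed to 18.5 to 39.8 FPKM in ND oil, 60.4 to 97.2 in WD oil and 174 in WD CCl4, but to 459 in ND CCl4 library 1 and 28.6 in ND CCl4 library 2. The part of the Mup share, of these cell markers and of the libraries that stood apart in the results below was not tested, and in bulk RNA fewer cells of a type and less RNA per cell cannot be told apart.

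The genes that activate fatty acids and carry them into mitochondria had differences of either sign with WD oil, and none passed. Acsl1, which encodes the main long-chain acyl-CoA synthetase of liver, was at 91.1, 86.7 and 125 FPKM in ND oil, 85.2 and 73.5 in WD oil, 179 and 103 in ND CCl4 and 87.7 in WD CCl4. It was the only 1 of the 37 genes for which both WD oil libraries lay below all ND oil libraries, at a log2 fold change of -0.33 ± 0.28 (SE). Acsl5, a second synthetase, ranged from 60.0 to 99.6 FPKM with overlapping ND oil, WD oil and ND CCl4 libraries.

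Cpt1a makes the carnitine ester at the outer membrane and is the regulated entry step. Its level was 31.2, 37.3 and 22.5 FPKM in ND oil, 50.7 and 49.8 in WD oil, 59.9 and 42.8 in ND CCl4 and 54.2 in WD CCl4. All 5 treated libraries exceeded the 3 controls, and the log2 fold changes were 0.74 ± 0.25 for WD oil (limma, adjusted p = 0.130) and 0.75 ± 0.25 for ND CCl4 (adjusted p = 0.156). Slc25a20, the carrier that moves acylcarnitine across the inner membrane, and Cpt2, which releases it as acyl-CoA, had smaller WD oil differences. Slc25a20 ranged from 25.9 FPKM in ND oil library 3 to 62.8 in ND CCl4 library 1. Cpt2 was at 41.8, 37.5 and 36.3 FPKM in ND oil, 42.3 and 47.9 in WD oil, 58.1 and 46.1 in ND CCl4 and 48.2 in WD CCl4, at log2 fold changes of 0.22 ± 0.18 and 0.42 ± 0.18 for the first pair of comparisons. The first of these equals the shift of all genes to 2 decimals.

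The mitochondrial spiral begins with acyl-CoA dehydrogenases of different chain lengths. Acadm, the medium-chain enzyme, was at 79.2, 77.8 and 68.2 FPKM in ND oil, 123 and 104 in WD oil, 151 and 124 in ND CCl4 and 103 in WD CCl4. No treated library overlapped the controls, and the ND CCl4 difference of 0.86 ± 0.19 had an adjusted p of 0.0767 in limma, against 0.115 for the WD oil difference of 0.59 ± 0.19. Acadvl, the very-long-chain enzyme, was at 150.1, 134 and 120.4 FPKM in ND oil, 158 and 172 in WD oil, 165 and 152 in ND CCl4 and 162 in WD CCl4. Its differences of 0.29 ± 0.18 and 0.23 ± 0.18 were close to the shift of all genes. Acadl and Acads, for long and short chains, ranged from 53.2 to 105 and from 50.6 to 101 FPKM and had WD oil differences of 0.49 and 0.60 and ND CCl4 differences of 0.61 and 0.22.

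Hadha and Hadhb encode the subunits of the trifunctional protein, which carries the later steps for long chains. Hadha was at 45.1, 49.2 and 48.0 FPKM in ND oil, 65.3 and 64.6 in WD oil, 70.8 and 62.6 in ND CCl4 and 56.6 in WD CCl4, at log2 fold changes of 0.45 ± 0.16 and 0.48 ± 0.16 for WD oil and ND CCl4. Hadhb was at 36.2, 33.6 and 32.5 FPKM in ND oil, 57.7 and 50.7 in WD oil, 62.8 and 50.3 in ND CCl4 and 54.2 in WD CCl4, at 0.65 ± 0.18 and 0.71 ± 0.18. All 5 treated libraries were above the controls for both genes. They are neighbours on chromosome 5, read in opposite directions (Hadha chr5:30118304-30155162 on the minus strand, Hadhb chr5:30155248-30184593 on the plus strand, GRCm38), and RefSeq places their start sites 273 bases apart. The 300-base windows from 250 bases before to 50 after each start therefore share 228 bases. The Hadha window (RefSeq, GRCm38.p6, chr5:30154931-30155230, minus strand) is printed to show the shared stretch, in capitals, which is chr5:30155003-30155230.
Hadha promoter: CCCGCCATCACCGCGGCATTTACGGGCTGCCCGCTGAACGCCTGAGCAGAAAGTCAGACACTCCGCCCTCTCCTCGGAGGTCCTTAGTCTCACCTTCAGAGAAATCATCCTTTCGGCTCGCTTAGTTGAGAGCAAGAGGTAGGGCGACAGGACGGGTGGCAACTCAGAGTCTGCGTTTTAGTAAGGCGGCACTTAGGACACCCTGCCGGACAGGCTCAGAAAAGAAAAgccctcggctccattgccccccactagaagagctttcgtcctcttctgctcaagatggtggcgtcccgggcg

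Hadh, the hydroxyacyl-CoA dehydrogenase for shorter chains, was at 109, 106 and 78.0 FPKM in ND oil, 166 and 162 in WD oil, 155 and 170.2 in ND CCl4 and 148 in WD CCl4. Its differences of 0.76 ± 0.20 (adjusted p = 0.0763 in limma) and 0.75 ± 0.20 (adjusted p = 0.119) were among the larger ones of the mitochondrial genes. Acaa2, the mitochondrial thiolase, had the highest level of the mitochondrial genes and behaved otherwise. It was at 401, 354 and 285 FPKM in ND oil, 349 and 389 in WD oil, 476 and 472 in ND CCl4 and 345 in WD CCl4, so that WD oil and WD CCl4 lay inside the range of the controls and ND CCl4 above it. Echs1, the short-chain hydratase, ranged from 68.0 to 109.6 FPKM, at 0.31 for WD oil and 0.36 for ND CCl4. Eci1 and Decr1, which prepare unsaturated chains for the spiral, had WD oil differences of 0.67 and 0.59 and ND CCl4 differences of 0.30 and 0.53. Etfa, Etfb and Etfdh, which pass the electrons on to the respiratory chain, had a median difference of 0.23 for WD oil and 0.35 for ND CCl4, and 0 of 3 reached an unadjusted p below 0.05 in either comparison.

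Of the 9 peroxisomal genes only Acot3 passed, in ND CCl4, and the others are given by their levels. Acaa1b, a thiolase of the peroxisomal spiral, had the highest mean level of the 37 genes, at 571, 453 and 265 FPKM in ND oil, 878 and 1083 in WD oil, 386 and 607 in ND CCl4 and 430.1 in WD CCl4. Both WD oil libraries lay above the other 6 libraries, at a log2 fold change of 1.25 ± 0.35 against ND oil (limma, adjusted p = 0.0846). Its close copy Acaa1a was at 119.6, 99.4 and 58.8 FPKM in ND oil, 126 and 179 in WD oil, 93.7 and 115 in ND CCl4 and 106 in WD CCl4. The ratio of Acaa1b to Acaa1a was 4.77, 4.56 and 4.51 in ND oil, 6.96 and 6.06 in WD oil, 4.11 and 5.29 in ND CCl4 and 4.04 in WD CCl4. Their coding sequences are 96.5% identical, so how fragments were split between them is uncertain. Their sum was 522 ± 185 FPKM (SD, n = 3) in ND oil, 1133 ± 181 (n = 2) in WD oil, 601 ± 172 (n = 2) in ND CCl4 and 537 in WD CCl4. FPKM is scaled for transcript length, and full transcript lengths were not compared, so the sum may still depend on that split.

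Ehhadh, the L-bifunctional enzyme of the peroxisomal spiral, had its 2 highest levels in ND CCl4. Its level was 33.1, 34.97 and 30.9 FPKM in ND oil, 55.5 and 37.0 in WD oil, 84.3 and 61.1 in ND CCl4 and 43.7 in WD CCl4. The ND CCl4 libraries exceeded all others, at 1.10 ± 0.23 against ND oil (limma, adjusted p = 0.0683), and WD oil was at 0.45 ± 0.23 (adjusted p = 0.287). Hsd17b4, the D-bifunctional enzyme that does the same steps on the opposite stereoisomer, was at 82.7, 88.1 and 77.7 FPKM in ND oil, 115 and 104 in WD oil, 109 and 102 in ND CCl4 and 84.4 in WD CCl4, with differences of 0.40 ± 0.17 and 0.35 ± 0.17. The ratio of Ehhadh to Hsd17b4 was 0.400, 0.397 and 0.397 in ND oil, 0.484 and 0.356 in WD oil, 0.773 and 0.599 in ND CCl4 and 0.518 in WD CCl4. The ratio barely varied among the controls, and ND CCl4 held its highest values. Abcd3, which imports acyl-CoA into peroxisomes, ranged from 74.3 to 109 FPKM, Decr2, a reductase for unsaturated chains, from 34.3 to 64.4, and Crot, which hands shortened chains to carnitine, from 58.0 to 116. Crot had its highest level in ND oil library 3, where most other genes had their lowest. Acad11 and Eci2, which are found in both organelles, ranged from 38.4 to 57.9 and from 73.8 to 156 FPKM.

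**Figure D2:**
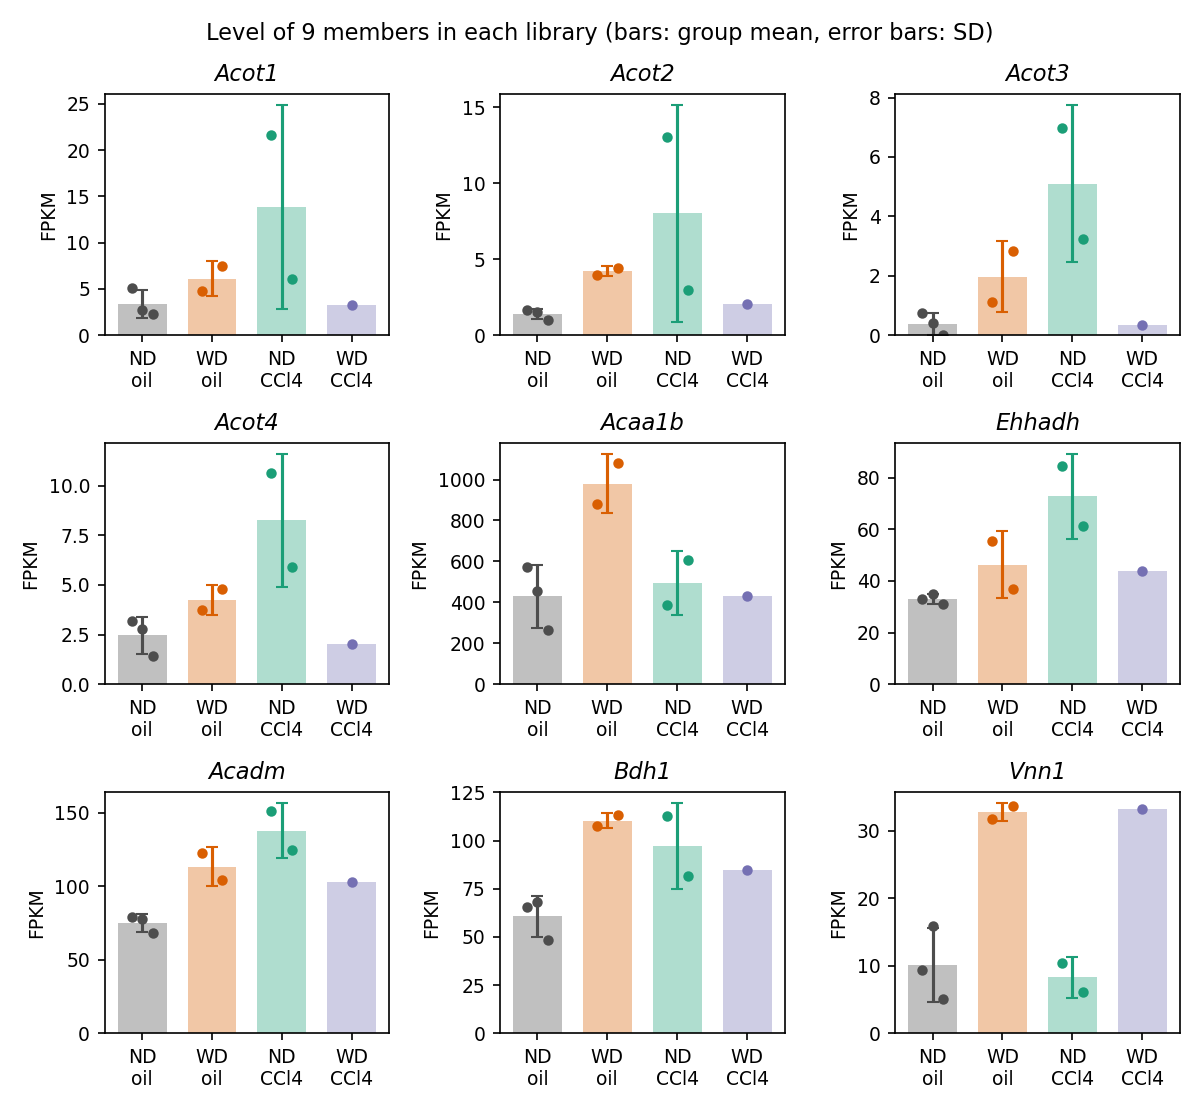
FPKM of 9 genes by group, with points for libraries, bars for group means and error bars for the SD (WD CCl4 has 1 library and no error bar). Acot1, Acot2, Acot3, Acot4, Ehhadh and Acadm have their highest mean in ND CCl4, Acaa1b and Bdh1 in WD oil, and Vnn1 is near 33 FPKM in both groups on the western diet.

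The acyl-CoA thioesterases Acot1 (cytosolic), Acot2 (mitochondrial), Acot3 and Acot4 (both peroxisomal) release free fatty acids from coenzyme A, and they had the largest ND CCl4 differences of the 37 genes. They lie side by side on chromosome 12 on the plus strand, in the order Acot2 (chr12:83987861-83993873), Acot1 (chr12:84009490-84018371), Acot4 (chr12:84038379-84048601) and Acot3 (chr12:84052144-84060402), all on GRCm38. The 300-base windows around their start sites (RefSeq, GRCm38.p6, plus strand) are shown because these neighbours had the 4 largest ND CCl4 differences of the 37, of which that of Acot3 alone passed: chr12:83987611-83987910 for Acot2, chr12:84009252-84009551 for Acot1, chr12:84038129-84038428 for Acot4 and chr12:84051894-84052193 for Acot3. Capitals mark AGGTCA on either strand, the letters of the half-site that nuclear receptors such as PPAR-alpha bind.
Acot2 promoter: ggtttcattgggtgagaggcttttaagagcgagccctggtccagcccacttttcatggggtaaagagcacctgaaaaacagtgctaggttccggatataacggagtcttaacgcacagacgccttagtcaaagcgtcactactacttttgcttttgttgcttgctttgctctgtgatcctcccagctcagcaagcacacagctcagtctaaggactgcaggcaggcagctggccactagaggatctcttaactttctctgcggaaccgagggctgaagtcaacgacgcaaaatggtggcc
Acot1 promoter: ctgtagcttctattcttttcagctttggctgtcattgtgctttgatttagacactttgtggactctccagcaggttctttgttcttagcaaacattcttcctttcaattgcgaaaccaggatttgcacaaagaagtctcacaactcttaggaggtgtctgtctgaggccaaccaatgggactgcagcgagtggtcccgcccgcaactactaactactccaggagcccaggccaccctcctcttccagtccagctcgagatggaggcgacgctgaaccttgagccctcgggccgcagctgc
Acot4 promoter: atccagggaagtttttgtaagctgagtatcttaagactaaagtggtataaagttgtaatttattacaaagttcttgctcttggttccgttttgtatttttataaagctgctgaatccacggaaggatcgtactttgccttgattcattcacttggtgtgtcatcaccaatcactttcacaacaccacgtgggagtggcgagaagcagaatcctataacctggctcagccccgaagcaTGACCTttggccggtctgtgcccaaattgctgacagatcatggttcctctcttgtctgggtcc
Acot3 promoter: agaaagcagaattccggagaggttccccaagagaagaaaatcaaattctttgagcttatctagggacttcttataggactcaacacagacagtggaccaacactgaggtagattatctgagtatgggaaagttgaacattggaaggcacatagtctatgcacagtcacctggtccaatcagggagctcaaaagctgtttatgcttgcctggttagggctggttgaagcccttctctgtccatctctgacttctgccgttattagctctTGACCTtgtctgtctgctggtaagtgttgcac
The half-site occurs once each in the Acot4 and Acot3 windows, on the minus strand, and in neither of the others. Over 31 of the 37 genes with a RefSeq window, 7 of 35 windows (20.0%) held AGGTCA on either strand, those of Acadm, Acadvl, Acot3, Acot4, Cpt1a and Echs1, beside 16.3% of 32851 windows of all genes. AGGTCANAGGTCA, 2 such half-sites with 1 base between them, was in 0 of 35 windows and in 0.0396% of all windows. These are matches of letters in a short window, and no match says nothing about binding elsewhere.

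Acot3 was at 0.730 and 0.422 FPKM and listed at 0 in ND oil, 1.12 and 2.83 in WD oil, 6.97 and 3.24 in ND CCl4 and 0.352 in WD CCl4. It rose in ND CCl4 against ND oil by 2.11 ± 0.37 (log2, adjusted p = 0.0417 in limma), higher in 2 of 2 libraries, having met the filter through WD oil and ND CCl4 with no ND oil library at 1 FPKM, and the difference for WD oil was 1.08 ± 0.37 (adjusted p = 0.137). The ND CCl4 call did not hold without ND CCl4 library 1 (1.65, adjusted p = 0.241), without any single ND oil or WD oil library (adjusted p 0.0682 to 0.120) or with a pseudocount of 0.1 (adjusted p = 0.0922). Acot4 was at 3.19, 2.80 and 1.40 FPKM in ND oil, 3.73 and 4.80 in WD oil, 10.6 and 5.90 in ND CCl4 and 2.02 in WD CCl4. Its ND CCl4 difference was 1.41 ± 0.30 (limma, adjusted p = 0.0737), and both ND CCl4 libraries exceeded the other 6.

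Acot1 was at 5.13, 2.70 and 2.32 FPKM in ND oil, 4.75 and 7.43 in WD oil, 21.6 and 6.04 in ND CCl4 and 3.27 in WD CCl4. Acot2 was at 1.65, 1.55 and 0.991 FPKM in ND oil, 3.98 and 4.44 in WD oil, 13.1 and 2.98 in ND CCl4 and 2.05 in WD CCl4. For both, ND CCl4 library 1 was far above library 2, and library 2 lay within or below the WD oil range. The differences for ND CCl4 were 1.58 ± 0.48 and 1.65 ± 0.45 (limma, adjusted p = 0.136 and 0.117). The coding sequences of Acot1 and Acot2 are 95.3% identical and those of the other pairs 74.2% to 83.9%, so the split of fragments between Acot1 and Acot2 is uncertain. The summed level of the 4 genes was 10.7, 7.48 and 4.71 FPKM in ND oil, 13.6 and 19.5 in WD oil, 52.3 and 18.2 in ND CCl4 and 7.69 in WD CCl4. The WD CCl4 library was thus inside the control range while both single treatments lay above it. Crat, which forms acetylcarnitine, likewise differed between the ND CCl4 libraries, at 21.4 and 4.58 FPKM, its highest and lowest of the 8. Exons of Crat overlap those of Dolpp1 on the other strand (at most 5.59 FPKM), as do those of Acsl5 and Zdhhc6 (22.1), Echs1 and Paox (11.7) and Acaa1a and Myd88 (8.67), and whether counting used the strand is not stated in the sources used here.

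Of the 2 ketone body genes, Bdh1, which interconverts acetoacetate and 3-hydroxybutyrate, was at 65.4, 67.9 and 48.6 FPKM in ND oil, 107 and 113 in WD oil, 113 and 81.4 in ND CCl4 and 84.5 in WD CCl4. All 5 treated libraries exceeded the controls, at 0.87 ± 0.23 for WD oil (limma, adjusted p = 0.0711) and 0.67 ± 0.23 for ND CCl4 (adjusted p = 0.160). Acat1, the thiolase that joins acetyl-CoA units, was at 65.1, 58.8 and 60.6 FPKM in ND oil, 98.8 and 80.9 in WD oil, 83.2 and 69.9 in ND CCl4 and 63.3 in WD CCl4, at 0.53 ± 0.18 and 0.31 ± 0.18.

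Among 6 other ketone body genes, which are not among the 37, 1 passed with WD oil, beside 4.41% of all tested genes. With ND CCl4 0 passed, beside 1.42%. At an unadjusted p below 0.05 in limma, 2 were higher and 1 lower with WD oil, beside 23.3% of all genes. With ND CCl4 4 were higher and 0 lower, beside 22.8%. The gene that passed was Bdh2, a cytosolic hydroxybutyrate dehydrogenase, which fell with WD oil by 1.28 (log2, SE 0.24, adjusted p = 0.0312 in limma). Its levels were 11.2, 10.9 and 7.24 FPKM in ND oil, 3.15 and 3.60 in WD oil, 12.2 and 18.5 in ND CCl4 and 5.39 in WD CCl4, and it was lower in WD oil than in ND CCl4 by a difference of -1.88 (adjusted p = 0.0275).

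Ppara itself was at 4.17, 7.72 and 3.36 FPKM in ND oil, 6.49 and 7.19 in WD oil, 7.31 and 4.78 in ND CCl4 and 5.17 in WD CCl4. The groups overlapped, and the differences of 0.43 ± 0.30 and 0.25 ± 0.30 did not pass. Vnn1, a pantetheinase and known target of PPAR-alpha, was at 9.28, 15.9 and 5.05 FPKM in ND oil, 31.8 and 33.7 in WD oil, 10.4 and 6.08 in ND CCl4 and 33.2 in WD CCl4. All 3 libraries on the western diet lay above all 5 on normal chow, whichever injection was given. Against ND oil the difference was 1.73 ± 0.40 for WD oil (limma, adjusted p = 0.0538), 1.75 ± 0.51 for WD CCl4 (adjusted p = 0.166) and -0.18 ± 0.40 for ND CCl4 (adjusted p = 0.779).

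Other targets and partners of PPAR-alpha, a list of 21 genes of which 19 were tested, are not among the 37. With WD oil 4 of 19 rose and 0 fell, beside 4.41% of all tested genes that passed in either direction, and with ND CCl4 2 of 19 rose and 0 fell, beside 1.42%. Cyp4a14, a fatty acid omega-hydroxylase, was at 6.85, 3.95 and 0.718 FPKM in ND oil, 88.8 and 44.1 in WD oil, 51.1 and 63.7 in ND CCl4 and 11.4 in WD CCl4. It rose by 3.97 ± 0.59 with WD oil and 3.84 ± 0.59 with ND CCl4 (limma, adjusted p = 0.0193 and 0.0286). Its relative Cyp4a10 was at 14.5, 15.6 and 3.34 FPKM in ND oil, 91.5 and 47.9 in WD oil, 77.5 and 98.8 in ND CCl4 and 43.3 in WD CCl4, and rose by 2.70 ± 0.57 and 3.09 ± 0.57 (limma, adjusted p = 0.0427 and 0.0460). Aldh3a2, a fatty aldehyde dehydrogenase, was at 54.3, 54.9 and 34.7 FPKM in ND oil, 117 and 120.0 in WD oil, 55.1 and 58.5 in ND CCl4 and 47.8 in WD CCl4. It rose with WD oil by 1.32 ± 0.23 (limma, adjusted p = 0.0272), while the WD CCl4 library lay inside the ND oil range. Ucp2, a mitochondrial inner membrane carrier that macrophages also express, was at 4.09, 5.80 and 3.72 FPKM in ND oil, 15.7 and 29.5 in WD oil, 18.5 and 5.73 in ND CCl4 and 18.995 in WD CCl4. It rose with WD oil by 2.04 ± 0.45 (limma, adjusted p = 0.0465), beside the macrophage markers given above, whose part was not tested. The genes nearest to passing among the rest lay in both directions. Cyp4a12a, a relative of Cyp4a10, was lower in every treated library than in ND oil, at 73.1, 104 and 68.5 FPKM in ND oil, 50.3 and 39.3 in WD oil, 15.01 and 44.8 in ND CCl4 and 44.6 in WD CCl4, with differences of -0.84 and -1.59 for WD oil and ND CCl4 (limma, adjusted p = 0.271 and 0.112). Hilpda, a lipid droplet protein, lay above all ND oil libraries in WD oil, and Fgf21, a hormone made by liver, overlapped with them. Pparg was at 2.25 to 5.26 FPKM in ND oil and 10.1 and 8.53 in WD oil, at an adjusted p of 0.0636.

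Of 12 other mitochondrial genes, 2 passed with WD oil, both higher, beside 4.41% of all tested genes, and 0 with ND CCl4, beside 1.42%. At an unadjusted p below 0.05 in limma, 6 were higher and 0 lower with WD oil, beside 23.3% of all genes. With ND CCl4 3 were higher and 1 lower, beside 22.8%. Cpt1b, the isoform of Cpt1a typical of muscle, was listed at 0 in the 6 libraries outside WD oil and at 2.16 and 1.65 FPKM in WD oil. It met the filter of 1 FPKM in 2 libraries only through the group where it is high, so it had to differ and its call is not counted as support. Acot9, a mitochondrial thioesterase, was at 0.782, 1.07 and 0.640 FPKM in ND oil, 3.14 and 5.41 in WD oil, 4.08 and 2.24 in ND CCl4 and 3.33 in WD CCl4, and rose with WD oil by 1.50 ± 0.26 (adjusted p = 0.0272). Acacb, whose product blocks Cpt1a through malonyl-CoA, was at 6.40 to 10.9 FPKM in ND oil, 15.8 and 13.7 in WD oil and 5.52 and 6.16 in ND CCl4, and passed in neither comparison (adjusted p = 0.145 and 0.206).

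Among 31 tested genes of peroxisomal oxidation and biogenesis, 1 fell with WD oil, beside 4.41% of all tested genes, and 1 rose and 1 fell with ND CCl4, beside 1.42%. The WD oil count is near the share over all genes. Nudt7, a peroxisomal hydrolase of coenzyme A, was at 177, 182 and 194 FPKM in ND oil, 93.8 and 99.6 in WD oil, 65.7 and 92.1 in ND CCl4 and 97.3 in WD CCl4. It fell by 0.92 (log2) with WD oil and by 1.23 with ND CCl4 (limma, adjusted p = 0.0450 and 0.0327), against the direction of most oxidation genes. Abcd2, an importer of very long chains, was at 0.535 and 0.630 FPKM and listed at 0 in ND oil, 2.0997 and 1.84 in WD oil, 5.12 and 2.36 in ND CCl4 and 1.01 in WD CCl4, and rose in ND CCl4 by 1.74 ± 0.31 (adjusted p = 0.0413). No ND oil library of Abcd2 reached 1 FPKM, so it was tested through the other groups. None of the Pex genes, which build peroxisomes, passed in either comparison.

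Set side by side by place, 1 of the 9 peroxisomal genes (Acot3) and 0 of the 18 mitochondrial and 0 of the 2 ketone body genes passed in ND CCl4, beside 1.42% of all tested genes. None of the 3 places held a call with WD oil, beside 4.41% of all tested genes. No ND oil library of Acot3 reached 1 FPKM and its call did not hold under most other settings, so these counts set no place apart. Relative to the median of all tested genes, the median log2 fold change of the 18 mitochondrial genes was 0.25 for WD oil, 0.21 for ND CCl4 and 0.12 for WD CCl4. For the 9 peroxisomal genes these values were 0.26, 0.03 and -0.12, and for the 2 ketone body genes 0.48, 0.22 and 0.07. The spread of a library's relative median around its group mean was 0.11 for the mitochondrial, 0.22 for the peroxisomal and 0.10 for the ketone body genes (SD). The values of the 9 peroxisomal genes differ from 0 by little more than their spread at most. This is a spread of single libraries and not the error of a difference between groups. The peroxisomal spread came mostly from ND oil, where the medians before subtraction were 0.25, 0.09 and -0.38, beside 0.49 and 0.51 in WD oil. The direct comparison of WD oil with ND CCl4 gave relative medians of -0.02, -0.23 and 0.25 for the 3 places. For the peroxisomal genes the direct value was thus below 0, with 5 of 9 genes lower in WD oil, although their median against ND oil was the higher one for WD oil. The peroxisomal value had the opposite sign without WD oil library 2 (0.146), was 0.00689 without ND CCl4 library 2, and was 0.0536 where genes under a mean of 5 FPKM, among them Acot3 and Acot4, were left out. These medians are descriptions over few genes and were not tested. For WD oil, ND CCl4 and WD CCl4 the relative medians of the 12 other mitochondrial genes were 0.35, -0.08 and 0.04. Those of the 31 other tested peroxisomal genes were -0.02, 0.03 and -0.03, and those of the 6 other ketone body genes 0.25, 0.30 and 0.27. The mitochondrial value for ND CCl4 and the peroxisomal value for WD oil were thus not seen in these wider lists. The mitochondrial value for WD oil was, but that wider list holds Cpt1b, which had to differ, and Acacb, whose product blocks Cpt1a. It is therefore not counted as support. The differences between the lists were not tested either.

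**Figure D3:**
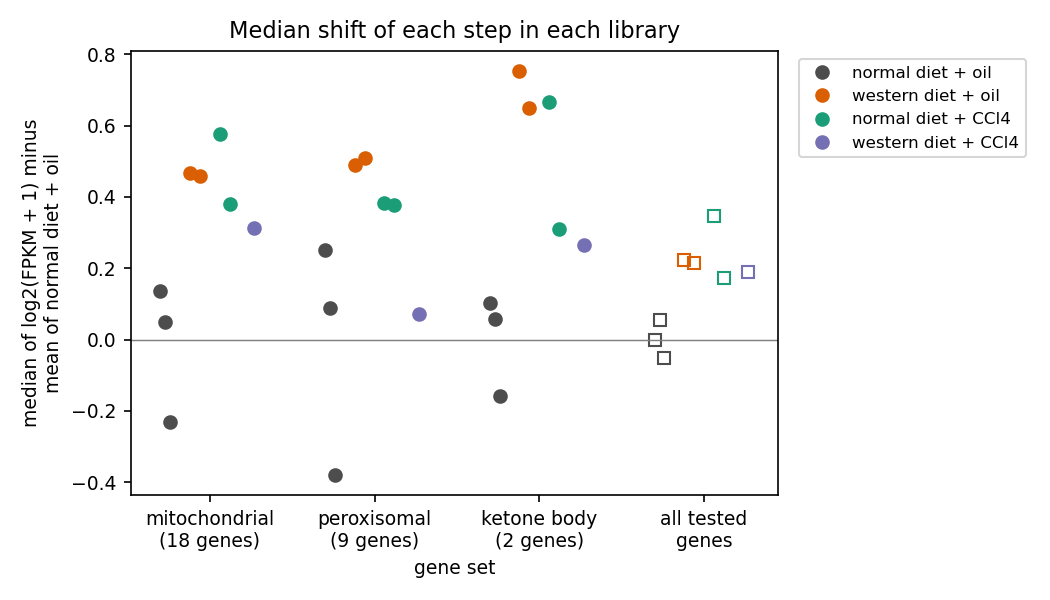
Each filled point is the median over the genes of a place of log2(FPKM + 1) minus the ND oil mean in 1 library, and open squares give the same over all tested genes. ND oil library 3 is the lowest point of every place, at -0.23, -0.38 and -0.16, and WD CCl4 lies below the WD oil libraries in each.

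**Figure D4:**
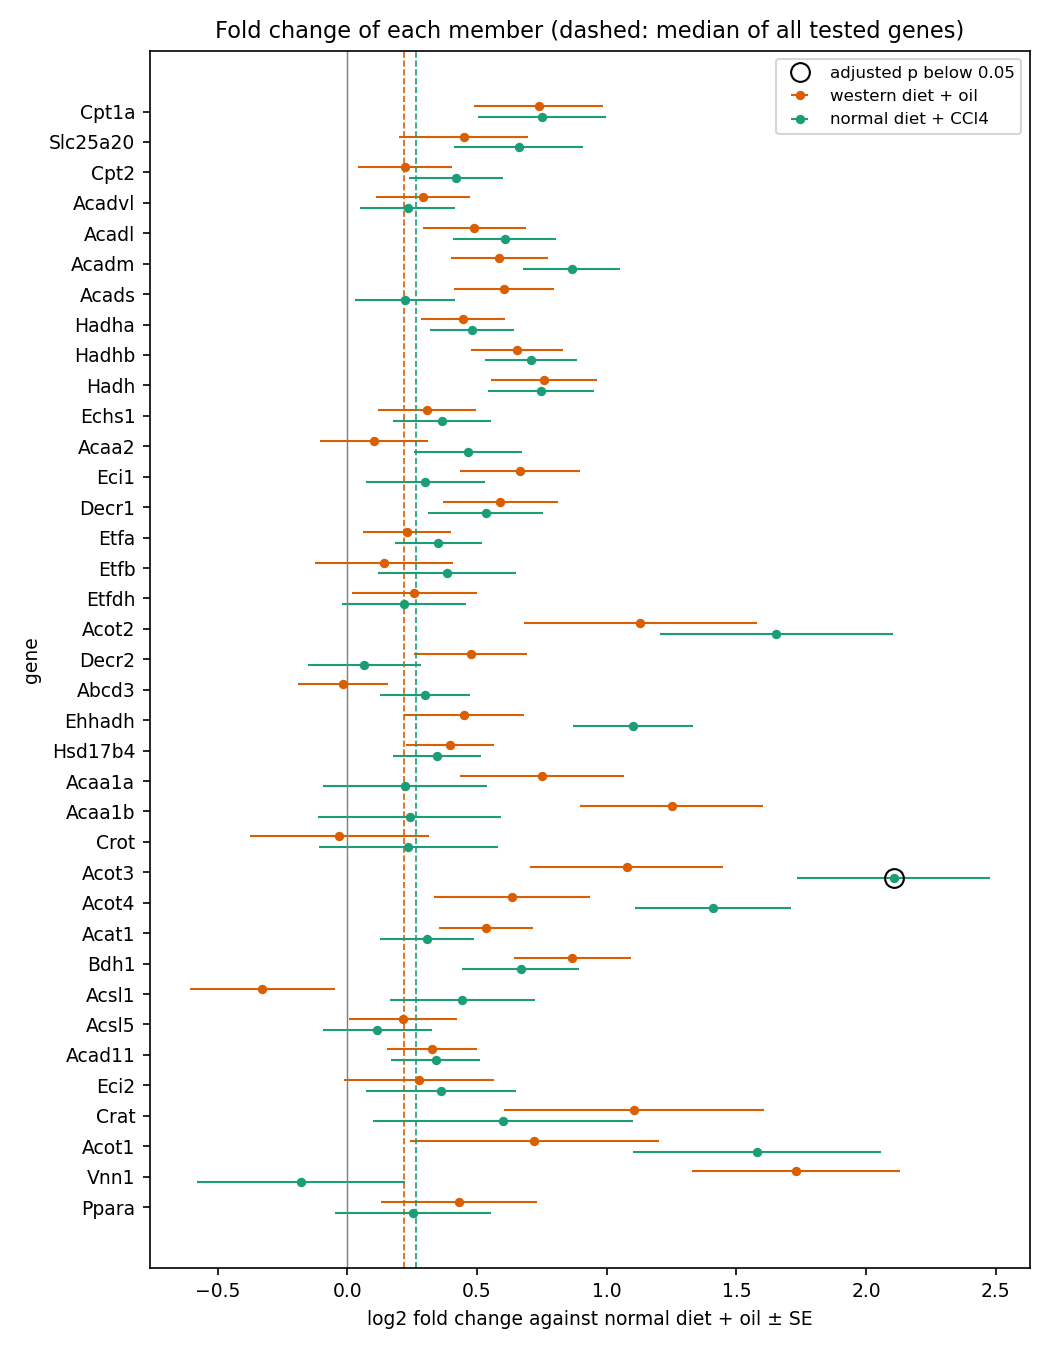
Log2 fold change of each gene against ND oil with its SE, for WD oil and ND CCl4, with dashed lines at the medians of all tested genes (0.22 and 0.26) and a circle on the 1 value that passed. Acot1 to Acot4 and Ehhadh lie further right for ND CCl4, and Vnn1, Acaa1b and Acaa1a for WD oil.

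With WD oil compared directly with ND CCl4, 0 of 37 genes passed, beside 0.617% of all tested genes, and 2 were higher and 4 lower in WD oil at an unadjusted p below 0.05, beside 11.1% of all genes. The higher were Vnn1 (1.91 ± 0.44, limma, adjusted p = 0.127) and Acaa1b (1.01 ± 0.39, adjusted p = 0.388). The lower were Acot3 (-1.03 ± 0.41), Acot4 (-0.78 ± 0.33), Acsl1 (-0.77 ± 0.31) and Ehhadh (-0.65 ± 0.25), at adjusted p of 0.395 to 0.442. Vnn1 passed without ND oil library 3 (adjusted p = 0.0449).

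In the single library with both treatments most of the genes lay below their level with either treatment alone. Against WD oil, 30 of 37 genes were lower in WD CCl4, at a median of -0.18 beside -0.03 for all genes. Of the 37, 0 passed, beside 0.0434% of all genes, and 0 were higher and 1 lower (Acaa1b, -1.18 ± 0.47) at an unadjusted p below 0.05, beside 4.19% of all genes. Against ND CCl4, 28 of 37 were lower, at a median of -0.18 beside -0.07, 0 passed, beside 0.261% of all genes, and 1 was higher (Vnn1, 1.93 ± 0.54) and 3 lower (Acot1, Acot3 and Acot4, -1.56, -2.10 and -1.57) at an unadjusted p below 0.05, beside 7.1% of all genes.

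The interaction of diet and CCl4, which asks whether the combined difference departs from the sum of the single ones, was below 0 for 35 of the 37 genes. Its median was -0.66, beside -0.29 for all tested genes, and 18.9% of all genes lay above 0. Under median-of-ratios scaling 29 of the 37 were below 0, at a median of -0.30 beside 0.00 for all genes. None of the 37 passed, beside 0.0608% of all genes, and 0 were higher and 15 lower at an unadjusted p below 0.05, beside 9.78% of all genes. The lowest values were those of Acot3 (-3.18 ± 0.62, limma, adjusted p = 0.190), Acot2 (-2.43 ± 0.75, adjusted p = 0.406), Acot1 (-2.29 ± 0.80, adjusted p = 0.471) and Acot4 (-2.21 ± 0.50, adjusted p = 0.271). Crot (0.21 ± 0.58) and Vnn1 (0.20 ± 0.67) were above 0. These values rest on 1 WD CCl4 library, taken to vary like the others. They moved with single libraries: without ND CCl4 library 2 Acot2 was at -3.34 and Acot3 at -3.64.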

How the data were processed

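RNA-seq of liver was deposited as 1 table of FPKM values made by the authors for 55487 genes in 8 libraries. Per the labels' protocols the kit was TruSeq Stranded mRNA. The submitters' processing notes name HISAT2 2.2.1, StringTie 2.1.0, cutadapt 3.7, FastQC 0.11.9 and the build GRCm38, without the role of each. FPKM summed to between 514832 and 612747 per library. Counts were not analysed here, so depth is unknown and no counting error is given, and a value listed at 0 may be a gene below the lowest listed level, 0.252 to 0.318 FPKM by library.

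Genes with at least 1 FPKM in at least 2 libraries were tested (11514). The model of log2(FPKM + 1) used limma 3.58.1 under R 4.3.3 (group means, eBayes with a trend, 7.93 degrees of freedom in all), with two-sided tests and Benjamini-Hochberg adjustment over all tested genes per comparison. All 4 groups shared 1 estimate of the spread, and the lone WD CCl4 library was taken to vary like the others. Tested on simulated data for these groups, the fit recovered 83.5% of changes of 2 on the log2 scale and 36.0% of changes of 1 for WD oil against ND oil, 81.5% and 26.5% for ND CCl4, and 72.5% and 0.0% for WD CCl4.

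The 37 genes and the lists were chosen with earlier results of these data known. Values in every library are given for members that passed and for a fixed set of members (Cpt1a, Cpt2, Acadm, Acadvl, Hadha, Acaa2, Ehhadh, Acaa1a, Acaa1b, Hsd17b4, Acot1 to Acot4, Bdh1, Acat1, Ppara and Vnn1), and for some others chosen after their values were seen (Acsl1, Hadh, Hadhb). Of other pathway lists, genes that passed and up to 4 more by smallest p could be named, and some of these genes are not reported here. Gene coordinates came from GENCODE M21 (GRCm38) and start-site windows from RefSeq (GRCm38.p6). Protein sequences were not used here, and identity between copies was computed on coding sequences of GENCODE transcripts. The other settings tried were no filter, a pseudocount of 0.1, a mean of at least 5 FPKM, a common sum, median-of-ratios scaling, removal of the Mup genes, robust eBayes, a replicate block, the compared groups alone, each library left out, and an unadjusted p below 0.05 with a 2-fold change. A fit without ND oil library 3 and ND CCl4 library 1 was chosen after seeing the data. Replicate numbers were checked for pairing, and same-numbered libraries had correlations of their deviations between -0.28 and -0.01. In a group of 2 libraries the deviations mirror each other, so few of these values are independent. The check therefore cannot tell whether the numbers pair the libraries.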

Additional observations from a re-analysis of the deposited data

How the results depend on the processing

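Members passing in WD oil against ND oil went from 0 to 2 with a common sum, beside 812 of all tested genes. They went to 5 with the compared groups alone, beside 1143 of all tested genes, and to 4 at an unadjusted p below 0.05 with a 2-fold change. In ND CCl4 against ND oil the count went from 1 to 5 with a common sum, beside 407 of all tested genes. The unadjusted p with a 2-fold change also gave 5. The count was 0 with a pseudocount of 0.1, no filter, a mean of at least 5 FPKM (which leaves Acot3 untested), median-of-ratios scaling, Mup removal or the compared groups alone. In these settings 18 to 148 of all tested genes passed. With the replicate block it was 0, and leaving out 1 library gave 0 to 9. The upper end of this range came from the fit without ND CCl4 library 2, where far more of all tested genes passed as well. That fit leaves 1 library in the group, so the upper end is not counted as support. Whether the numbers pair the libraries cannot be told, and the replicate block changed no other count of members. At the unadjusted p with a 2-fold change the other counts, all 0 in limma with adjustment, were 1 for WD CCl4 against ND oil, 3 for WD oil against ND CCl4, 1 for WD CCl4 against WD oil, 4 for WD CCl4 against ND CCl4 and 7 for the interaction. The share of all tested genes that met this rule is not given here, so no count under it sets these genes apart. An unadjusted p below 0.05 alone was reached by 4.19% to 23.3% of all tested genes, depending on the comparison. Without ND oil library 3 the count with adjustment for WD oil against ND CCl4 was 1, beside 122 of all tested genes. The relative ketone body median in ND CCl4 went from 0.224 to 0.0858 without ND oil library 3 and ND CCl4 library 1, a fit chosen after seeing the data. The relative peroxisomal median of WD oil against ND CCl4 went from -0.23 to 0.0536 at a mean of at least 5 FPKM, which drops Acot2, Acot3 and Acot4, and leaving out 1 library gave -0.347 to 0.146. The cause was not tested. The adjusted p of Acot3 in ND CCl4 was at most 0.263 over all of these. Depth is unknown, so no limit from counting error could be set for the low values of Acot2 and Acot3.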
